A study of Mus musculus with 61 samples.

Results

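The genes of the calcium/calmodulin-dependent protein kinases and the classical protein kinase C genes were followed through the mouse brain, together with the catalytic subunit of calcineurin. The 8 genes were Camk2a, Camk2b, Camk2d, Camk2g, Camk4, Prkca, Prkcb and Ppp3ca, out of 16358 genes that could be named on the array. Each gene was taken by its brightest probe among the probes whose RefSeq identifier gave the gene symbol. These 8 genes had 13 probes, and some values of the other 5 probes are given beside those of the brightest one. All 8 brightest probes were well above background in all 61 fractions.

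The fractions came from 6 brains of 8-week-old male C57BL/6J mice, with no treatment and no altered gene. Each brain was cut serially into fractions of 1 mm in 1 direction, so that a series is 1 mouse. The sagittal series S (9 fractions) and So (10 fractions) ran from left to right, the coronal series C (13) and Co (16) from posterior to anterior, and the horizontal series H (6) and Ho (7) from dorsal to ventral. The S fractions, labelled from 2 to 10 as deposited, are numbered 1 to 9 here. The series So, Co and Ho were cut slightly obliquely. The fractions of both mice of a plane at matching positions form 28 pairs, named c1 to c13, h1 to h6 and s1 to s9, and the 2 brains of a pair are the only replicates at a position. Each fraction was a slab of whole brain and held many cell types, so that fewer cells of a type and less RNA per cell cannot be told apart.

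Calcium ions that enter an active neuron bind calmodulin, and calcium-loaded calmodulin switches on the CaM kinases and the phosphatase calcineurin. CaM kinase II is a holoenzyme built from the products of 4 genes, of which the alpha and beta forms are the abundant neuronal ones and are known for their part in synaptic plasticity. CaM kinase IV acts mainly in the nucleus on transcription factors such as CREB. The classical protein kinase C enzymes need calcium together with diacylglycerol, and calcineurin removes phosphate groups that kinases have added.

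Levels are given as log2 levels, the log2 of the processed spot signal minus the 75th percentile of that array, so that 0 is a probe as bright as the 75th percentile. A log2 level is compared between fractions and never between probes. Differences were tested with limma over 36573 detected probes with Benjamini-Hochberg adjustment, and an adjusted p under 0.05 is named a call. The arrays had a 75th percentile between 739.7 and 1971.3 signal units, and 57.9% to 73.1% of probes were well above background. Marker genes placed the coronal pairs. The glycine transporter gene Slc6a5 of hindbrain neurons peaked in C1 and Co2, Gabra6 of cerebellar granule cells in C3 and Co5, Neurod6 of cortical and hippocampal neurons in C6 and Co8, Ppp1r1b of striatal neurons in C9 and Co11, and Doc2g and Eomes of the olfactory bulb in C13 and Co15. Tbr1, fixed as a bulb marker, peaked in C11 and Co12 instead. The pairs c1 to c4 are called the hindbrain end, c7 to c12 the cerebrum and c13 the bulb end. These names were set by position alone. The summed log2 level of the 3 bulb markers was 5.58 to 5.92 at the bulb end and -0.82 to 5.34 in the cerebrum. The fractions called cerebrum were therefore not free of bulb marker signal. They also held the peak of Tcf7l2, a marker of thalamus and brainstem neurons, in C7 and Co9.

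The promoters of Camk2b, Prkca and Prkcb, which were higher in the cerebrum, and of Camk2d, which was not called there, are shown because they let the start regions of genes with unlike profiles be read side by side. The 250 bases before the start are from RefSeq on GRCm38.p6, on the strand of the gene, at chr11:6065749-6065998 (minus strand) for Camk2b, chr11:108343889-108344138 (minus strand) for Prkca, chr7:122288875-122289124 (plus strand) for Prkcb and chr3:126596701-126596950 (plus strand) for Camk2d. Capitals mark the GC box GGGCGG on either strand.
Camk2b: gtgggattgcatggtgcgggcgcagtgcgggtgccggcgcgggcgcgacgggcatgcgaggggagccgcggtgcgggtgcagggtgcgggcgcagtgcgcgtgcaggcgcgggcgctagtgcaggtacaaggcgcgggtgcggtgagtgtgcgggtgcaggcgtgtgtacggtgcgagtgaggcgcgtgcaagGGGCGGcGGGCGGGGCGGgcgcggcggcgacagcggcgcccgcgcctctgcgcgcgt
Prkca: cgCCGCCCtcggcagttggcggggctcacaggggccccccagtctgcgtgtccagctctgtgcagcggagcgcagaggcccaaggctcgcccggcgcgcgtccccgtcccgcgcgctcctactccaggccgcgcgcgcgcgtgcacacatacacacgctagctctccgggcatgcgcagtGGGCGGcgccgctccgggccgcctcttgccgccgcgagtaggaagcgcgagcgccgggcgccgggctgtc
Prkcb: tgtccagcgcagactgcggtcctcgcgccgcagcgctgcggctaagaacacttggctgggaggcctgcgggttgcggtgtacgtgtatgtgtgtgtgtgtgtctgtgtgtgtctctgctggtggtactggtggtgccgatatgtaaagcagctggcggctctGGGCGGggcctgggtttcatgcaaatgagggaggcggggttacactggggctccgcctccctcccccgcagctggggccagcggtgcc
Camk2d: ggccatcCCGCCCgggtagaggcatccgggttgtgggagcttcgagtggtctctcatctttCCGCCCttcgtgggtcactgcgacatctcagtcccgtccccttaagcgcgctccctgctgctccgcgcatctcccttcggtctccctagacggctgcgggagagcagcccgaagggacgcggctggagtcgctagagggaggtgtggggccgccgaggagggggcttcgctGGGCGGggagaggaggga
The GC box occurred 3 times before Camk2b, where 2 copies overlap by 1 base, 2 times before Prkca, 1 time before Prkcb and 3 times before Camk2d. It was present in 32.7% of the 32851 promoter windows of the same length. The cAMP response element TGACGTCA, which CREB binds, occurred in none of the 4 windows and in 1.5% of all windows. Its core TGACG was in none of the 4 and in 17.8% of all windows, and the TATA box TATAAA in none of the 4 and in 12.4%. The windows of the 4 genes held 65.2% to 78.4% G and C, against a median of 52.4%. These matches are a description of the letters and had no test.

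Of the 8 genes, 7 varied over the 28 pairs, where 61.3% of all detected probes did. Camk2a had the widest span of log2 levels, from -0.44 in Co3 to 5.33 in S2, a range of 54.4-fold that was wider than in 94.5% of detected probes. Camk4 spanned 13.5-fold and Prkcb 6.16-fold, also wider than the median probe (2.13 on the log2 scale). The other 5 had narrower spans than the median probe, at 4.06-fold for Prkca, 3.94-fold for Ppp3ca, 2.79-fold for Camk2b, 2.54-fold for Camk2d and 2.28-fold for Camk2g. Camk2d alone was not called (limma F over pairs, adjusted p = 0.0922). It was called with the mouse as a block (adjusted p = 0.0041) and with either of its other probes (adjusted p = 0.0067 and 0.014). In the fit of each plane alone, 6 of the 8 genes varied over the coronal pairs (37.7% of detected probes), 3 over the horizontal pairs (12.6%) and 0 over the sagittal pairs (6.59%).

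**Figure D1:**
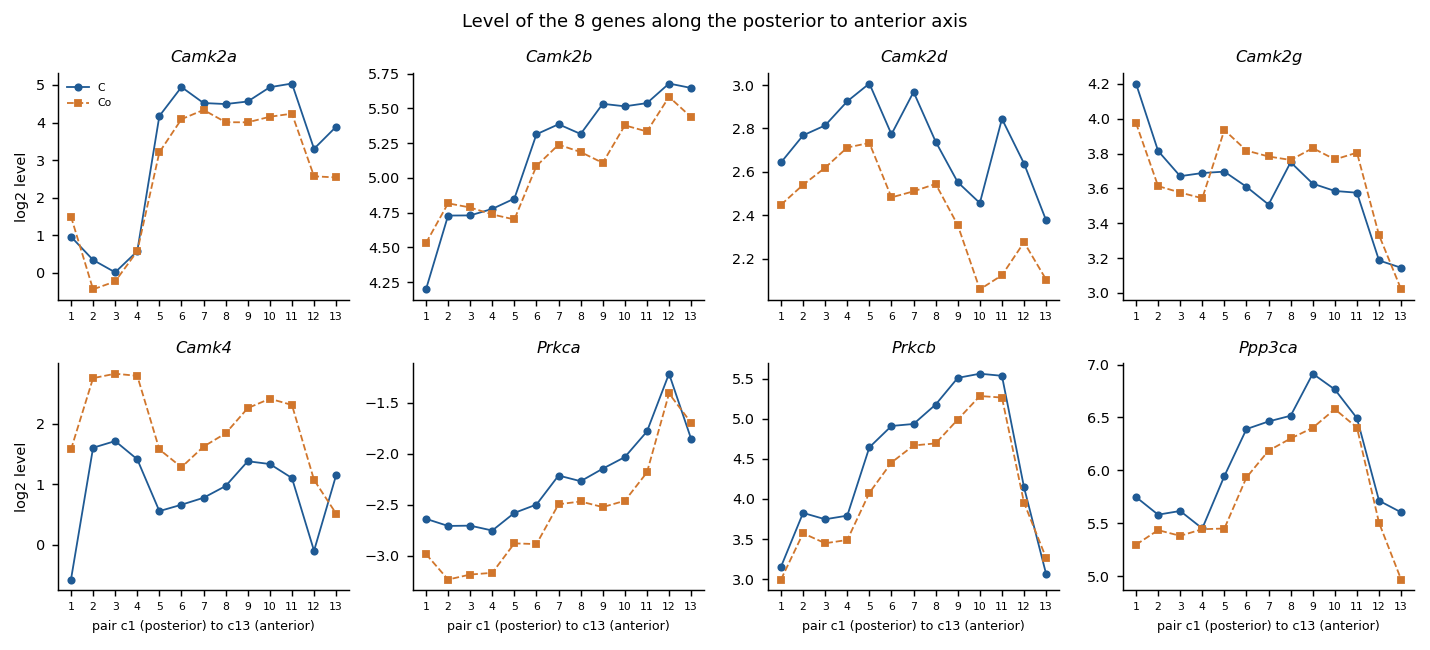
Log2 level of each gene (vertical axis, own scale per gene) in the pairs c1 to c13 from posterior to anterior, with the C mouse as circles and the Co mouse as squares, 1 array per point. Camk2a stepped up between c4 and c5 in both mice, Prkcb and Ppp3ca fell towards c13, and Camk4 ran lower in the C mouse than in the Co mouse in 12 of 13 pairs.

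Camk2a, the alpha form of CaM kinase II and a main protein of excitatory synapses of the forebrain, was 13.6-fold higher in the cerebrum than at the hindbrain end. In the C mouse its log2 level was 0.96, 0.34, 0.02 and 0.58 in the 4 hindbrain fractions C1 to C4. It was 4.17 in C5, 4.94 in C6 and between 3.30 and 5.04 (median 4.54) in the 6 cerebral fractions. The Co mouse gave 1.50, -0.44, -0.23 and 0.58 in Co2 to Co5, then 3.21 in Co6, 4.09 in Co7 and 2.57 to 4.34 (median 4.08) in the cerebrum. The 2 groups of fractions did not overlap in either mouse, and the lowest levels were those around the cerebellum, not those at the very back. The difference was 3.77 ± 0.20 (SE) on the log2 scale (limma, adjusted p = 1.7e-16), 4.00 in C and 3.53 in Co. A second, dim probe of Camk2a, well above background in 39 of 61 fractions, rose by 0.84 ± 0.29 (limma, adjusted p = 0.015).

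Camk2b, the beta form that ties the holoenzyme to actin, was also higher in the cerebrum, by a smaller amount. Its log2 level was 4.20, 4.73, 4.73 and 4.78 in C1 to C4 and 5.32 to 5.68 in the cerebral fractions of that mouse. In Co2 to Co5 it was 4.53, 4.82, 4.79 and 4.74, against 5.11 to 5.58 in the cerebrum. No cerebral fraction overlapped a hindbrain fraction. The difference was 0.74 ± 0.06 (limma, adjusted p = 2.3e-12), or 1.67-fold. The log2 ratio of Camk2a to Camk2b, formed within each array, rose by 3.03 ± 0.18 from the hindbrain end to the cerebrum (limma, adjusted over 28 ratios, p = 1.9e-16).

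Camk2d and Camk2g encode the delta and gamma forms, which are widely expressed outside the nervous system. Neither was called between cerebrum and hindbrain end, at -0.18 ± 0.10 and -0.13 ± 0.08 (limma, adjusted p = 0.14 and 0.15). Camk2d was called lower in the cerebrum with the mouse as a block (adjusted p = 0.049), without C11 (adjusted p = 0.041) and with 1 of its 2 other probes, at -0.35 ± 0.10 (adjusted p = 0.0038). In the C mouse Camk2g was highest in the hindmost fraction, at 4.20 in C1, and lowest at the front, at 3.14 in C13. In the Co mouse it was 3.96 in Co1, 3.98 in Co2 and 3.01 in Co16. Both mice therefore had their highest values of Camk2g in the hindmost fractions and their lowest in the foremost ones.

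Prkcb, a classical protein kinase C of forebrain neurons, was 2.77-fold higher in the cerebrum. Its log2 level was 3.16, 3.83, 3.75 and 3.79 in C1 to C4 and 4.14 to 5.56 in the cerebrum of the same mouse. In the Co mouse the values were 3.00, 3.57, 3.45 and 3.49 in Co2 to Co5 and 3.95 to 5.28 in the cerebrum, again with no overlap. The difference was 1.47 ± 0.11 (limma, adjusted p = 3.3e-13). A second probe of Prkcb differed by 0.07 ± 0.20 (limma, adjusted p = 0.80), at 0.26 in the C mouse and -0.13 in the Co mouse. The gain of Prkcb in the cerebrum thus held for the brightest probe and was not called for the other one, and the correlation of both probes over the 61 fractions was 0.59.

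Prkca encodes the alpha form of the classical enzymes, which many tissues express. Its log2 level lay between -2.75 and -2.64 in C1 to C4 and between -2.27 and -1.21 in the cerebrum, and between -3.23 and -2.98 in Co2 to Co5 and between -2.52 and -1.41 in the cerebrum of Co. It rose towards the front and was highest in C12 and Co14, the fractions just behind the bulb end. The difference was 0.82 ± 0.09 (limma, adjusted p = 9.8e-09), or 1.77-fold. Ppp3ca, the alpha catalytic subunit of calcineurin, was 1.81-fold higher in the cerebrum, by 0.86 ± 0.10 (limma, adjusted p = 1.3e-08). It lay at 5.45 to 5.75 in C1 to C4 and 5.71 to 6.91 in the cerebrum of C, where the groups overlapped in C12 alone, and at 5.30 to 5.44 and 5.50 to 6.58 in Co, with no overlap.

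In all, 5 of the 8 genes were higher in the cerebrum than at the hindbrain end, and 0 were lower, where 20.8% of detected probes were higher and 30.1% lower. The median difference of all detected probes was -0.13 with this scaling and 0.00 when arrays were scaled to their medians, so that 40.9% and 56.2% of called probes were higher. Markers of cortical and hippocampal excitatory neurons differed in the same direction as the 5 genes. All 3 of 3 were higher in the cerebrum (among them Slc17a7 by 2.42 and Neurod6 by 3.38), and their summed log2 level was -2.44 to 0.40 at the hindbrain end and 1.51 to 2.95 in the cerebrum. Over the 61 fractions that sum had r = 0.86 with Prkcb but 0.46 with Prkca. Markers of striatal neurons were also higher in 3 of 3 and those of microglia in 2 of 2 measured. Markers of oligodendrocytes were lower there in 3 of 3 and markers of cerebellar granule cells in 3 of 3. Those of Purkinje cells and of astrocytes were lower in 3 of 3 each. Of 4 general neuron markers, 1 was higher and 1 lower. The part of cell content in the differences was not tested.

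**Figure D2:**
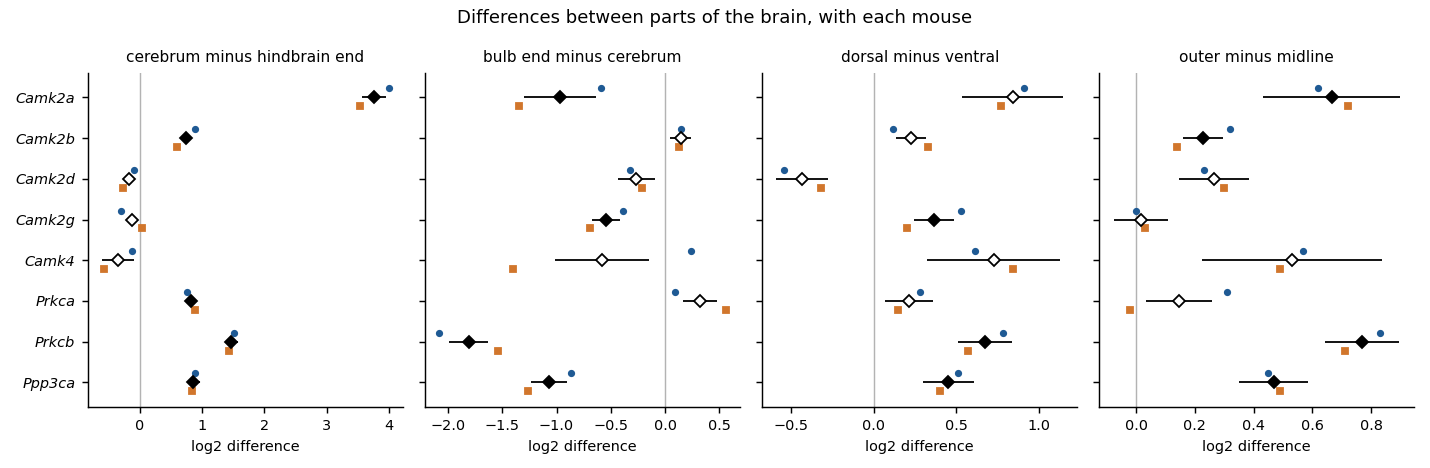
Difference in log2 level (horizontal axis) between parts of the brain for each gene. Diamonds with bars are the limma estimate and its SE, filled where the adjusted p was under 0.05, and small circles (C, H or S) and squares (Co, Ho or So) are the values within each mouse; Camk2a stood at 3.77 in the first panel, and Prkcb at -1.81 in the second.

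Camk4, whose product CaM kinase IV is enriched in cerebellar granule cells and the forebrain, had a different profile with 2 high stretches. In the Co mouse its log2 level was 2.75, 2.83 and 2.79 in Co3 to Co5, fell to 1.28 in Co7, rose again to 2.41 in Co11 and ended at 0.11 in Co16. The C mouse had 1.60, 1.72 and 1.41 in C2 to C4, 0.56 in C5, 1.38 in C9, -0.10 in C12 and 1.15 in C13. It lay below the Co mouse in 12 of 13 pairs, all but c13. The cerebrum and the hindbrain end were not called different, at -0.35 ± 0.26 (limma, adjusted p = 0.27), and the groups overlapped in both mice. The call was made with the mouse as a block (adjusted p = 0.038), without C1 (-0.62, adjusted p = 0.039) and with the second probe of Camk4, at -0.39 ± 0.11 (adjusted p = 0.0047).

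The level of Camk4 also set the coronal series apart from the others. All 13 fractions of C and 9 of 16 of Co lay below 1.84, the lowest of the 32 fractions of the sagittal and horizontal series. The means of its linear scaled signal were 2.06 in C, 3.78 in Co, 6.46 in H, 6.78 in Ho, 6.28 in S and 4.92 in So, where 1 is the 75th percentile of an array. Every series runs through a whole brain, but these means give each fraction the same weight whatever its size. Slabs of unlike planes also hold unlike tissue. Tissue content of the slabs, mouse, cutting plane and scan day cannot be told apart here. With the second probe of Camk4, 3 of 13 fractions of C and 8 of 16 of Co lay below the lowest of the other planes.

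At the bulb end 4 genes were lower than in the cerebrum, where 16.5% of detected probes were lower and 15.8% higher. The array of C13 was scanned on another day and slide than those of C1 to C12. Position and scan day therefore cannot be told apart at the bulb end of the C mouse, while all Co arrays shared a scan day. Prkcb was 3.06 in C13 and 3.26 in Co15, below every cerebral fraction of the same mouse, a difference of -1.81 ± 0.18 (limma, adjusted p = 1.6e-09). Its second probe gave -1.68 ± 0.33 (limma, adjusted p = 0.00018). Ppp3ca was 5.60 and 4.97, lower by 2.10-fold (-1.07 ± 0.17; limma, adjusted p = 7.3e-06). Camk2g was 3.14 and 3.02, below every cerebral fraction, with a difference of -0.54 ± 0.13 (limma, adjusted p = 0.0015). Camk2a was 3.89 and 2.54, and its difference of -0.97 ± 0.33 (limma, adjusted p = 0.023) was -0.29 without Co15 (adjusted p = 0.71) and -1.64 without C13. The dim second probe of Camk2a was not called, at -0.42 ± 0.48 (adjusted p = 0.59), with 0.60 in the C mouse and -1.43 in the Co mouse.

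Camk2b and Prkca were not called at the bulb end, at 0.14 ± 0.10 and 0.32 ± 0.16 (limma, adjusted p = 0.29 and 0.12). Prkca was called higher there with the mouse as a block (adjusted p = 0.012). With c12 and c13 against c7 to c11, both genes were called higher. Prkca then differed by 0.71 (limma, adjusted p = 1.8e-05) and Camk2b by 0.23 (limma, adjusted p = 0.013). The 2 classical protein kinase C genes thus differed from each other: the log2 ratio of Prkca to Prkcb was 2.14 ± 0.16 higher at the bulb end than in the cerebrum (limma, adjusted over 28 ratios, p = 9.6e-13). Camk4 was 1.15 in C13, within its cerebral range, and 0.52 in Co15, below it (-0.58 ± 0.43, adjusted p = 0.35; with the mouse as a block, adjusted p = 0.048; second probe, -1.24 ± 0.19, adjusted p = 4.5e-06). Camk2d was not called (adjusted p = 0.26), but 1 of its 2 other probes was lower, at -0.72 ± 0.15 (adjusted p = 0.00029). All 3 cortical and hippocampal excitatory neuron markers were lower and all 3 astrocyte markers and both endothelial markers higher at the bulb end. Markers of striatal neurons, oligodendrocytes and choroid plexus were also lower in 3 of 3 each, and those of thalamus and brainstem neurons in 2 of 2. Of 4 general neuron markers, 2 were lower and 0 higher. Their part in these differences was not tested.

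From dorsal to ventral, 3 genes were called higher in h1 and h2 than in h5 and h6, where 5.81% of detected probes were higher and 8.47% lower. Prkcb had log2 levels of 4.97 and 4.95 in H1 and H2 and of 3.97 and 4.39 in H5 and H6. In Ho2 and Ho3 it had 5.08 and 4.78, and in Ho6 and Ho7 4.42 and 4.30. The dorsal fractions lay above the ventral ones in both mice, by 0.67 ± 0.16 (limma, adjusted p = 0.0039). Ppp3ca was higher by 0.45 ± 0.16 (adjusted p = 0.047) and Camk2g by 0.36 ± 0.12 (adjusted p = 0.039). Both stood near the threshold, and leaving out single arrays ended the call of Ppp3ca in 34 cases and that of Camk2g in 5 (H1, H2, H5, H6 and Ho2). With h1 against h6 alone, Camk2g was called (0.57, adjusted p = 0.032), while Prkcb (0.68, adjusted p = 0.064) and Ppp3ca (0.38, adjusted p = 0.38) were not. Markers moved along this axis too. Cerebellar granule cell markers were higher dorsally in 3 of 3 (summed log2 level 1.17 to 2.89, against -1.05 to 1.20 ventrally), Purkinje cell markers in 3 of 3 (5.47 to 5.80, against 4.15 to 4.70) and excitatory neuron markers in 2 of 3 (2.17 to 2.43, against 1.03 to 1.45), and oligodendrocyte markers were lower in 3 of 3 (5.07 to 6.49, against 6.68 to 7.16). Their part in these differences was not tested.

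With the mouse as a block, 7 genes were called from dorsal to ventral. Calls rose in general: 9944 of 36573 detected probes were called with the block, against 5224 without it. Of these, Camk2a (0.84, adjusted p = 0.0051), Camk2b (0.23, adjusted p = 0.038) and Camk4 (0.73, adjusted p = 0.015) were higher dorsally. Camk2d was lower dorsally (-0.43, adjusted p = 0.0081), at 2.33 and 2.43 in H1 and H2 and 2.99 and 2.85 in H5 and H6, and at 2.56 and 2.60 in Ho2 and Ho3 and 2.70 and 3.105 in Ho6 and Ho7. Without the block these 4 genes missed the threshold (limma, adjusted p = 0.064, 0.095, 0.28 and 0.065). That fit pools the spread over the pairs of all planes, so that mouse differences in the coronal plane enter it. For Camk4, Co minus C was 0.99 and Ho minus H 0.07. Of the other probes of Camk2d, 1 was called lower dorsally without the block, at -0.50 ± 0.16 (adjusted p = 0.028), and the other gave 0.11 ± 0.14 (adjusted p = 0.77). The second probe of Camk4 was called without the block, at 0.80 ± 0.18 (adjusted p = 0.0015), while that of Prkcb was not, at 0.51 ± 0.31 (adjusted p = 0.34). Scaling arrays to their medians made 55.6% of all called probes dorsally higher, against 40.7% with the main scaling.

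**Figure D3:**
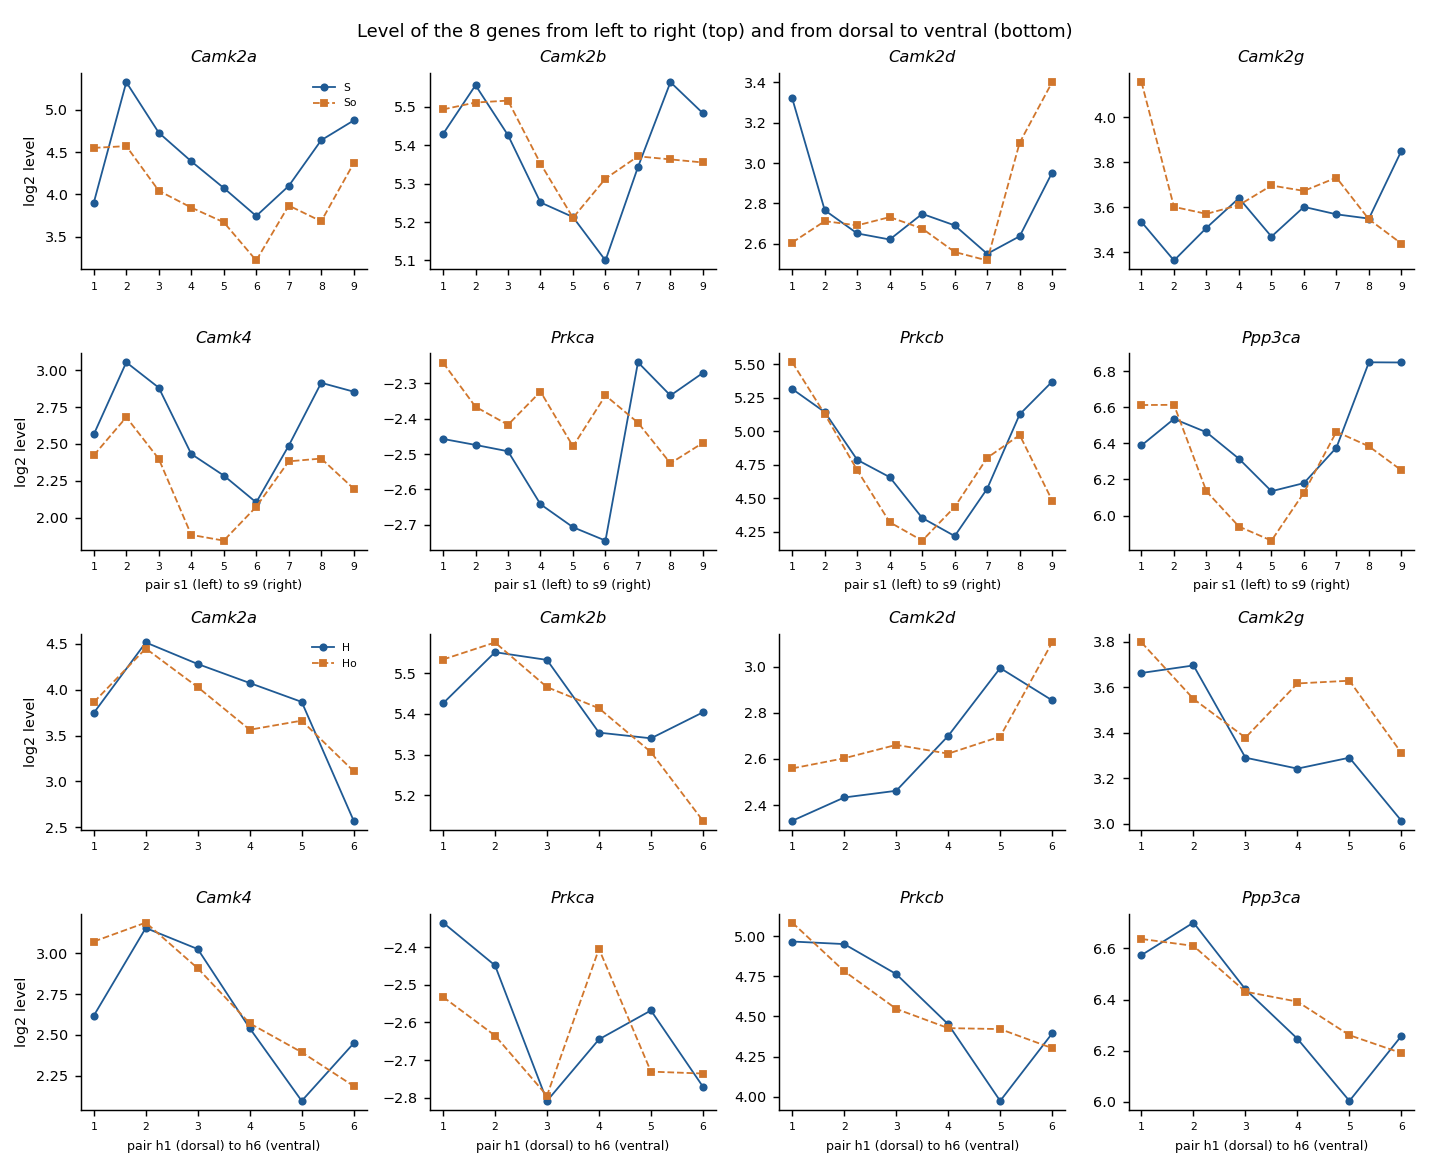
Log2 level of each gene (vertical axis, own scale per gene) in the sagittal pairs s1 to s9 from left to right (upper 2 rows) and the horizontal pairs h1 to h6 from dorsal to ventral (lower 2 rows), with S and H as circles and So and Ho as squares. Prkcb and Camk4 were lowest in the sagittal fractions near the midline, and Prkcb fell from h1 to h5 in both horizontal series.

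From the outer sagittal pairs to the midline, 4 genes fell, where 9.01% of detected probes were higher in the outer pairs and 10.6% lower. Prkcb was 5.32, 5.14, 5.13 and 5.37 in the outer fractions S1, S2, S8 and S9 and 4.66, 4.35 and 4.22 in S4 to S6. In the So mouse it was 5.51, 5.13, 4.97 and 4.48 in the outer fractions So2, So3, So9 and So10, against 4.32, 4.18 and 4.44 in So5 to So7. The outer fractions lay above the midline ones in both mice, by 0.77 ± 0.13 (limma, adjusted p = 2.4e-05). Ppp3ca was higher in the outer pairs by 0.47 ± 0.12 (adjusted p = 0.0040) and Camk2b by 0.23 ± 0.07 (adjusted p = 0.014), with no overlap in either mouse. Camk2a was higher by 0.67 ± 0.23 (adjusted p = 0.041), with overlap in both mice. The array of S1 was scanned on another day and slide than those of S2 to S9.

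The dim second probe of Camk2a ran the other way, at -0.52 ± 0.34 (limma, adjusted p = 0.34), and the second probe of Prkcb gave 0.21 ± 0.24 (adjusted p = 0.66). Leaving out 1 array ended the call of Camk2a in 7 cases (S2, S8, S9, So2, So5, So6 and So7) and that of Camk2b in 2 (S4 and S6). Camk4 lay higher in every outer fraction than in every midline fraction of its mouse, with a difference of 0.53 ± 0.31 (adjusted p = 0.27) that was called with the mouse as a block (adjusted p = 0.016) and with its second probe (0.47 ± 0.13, adjusted p = 0.011). Camk2d, at 3.32 in S1, 3.101 in So9 and 3.40 in So10, differed by 0.27 ± 0.12 (adjusted p = 0.13; with the mouse as a block, adjusted p = 0.026). Excitatory neuron markers were higher in the outer pairs in 3 of 3 (summed log2 level 2.27 to 2.79, against 1.14 to 1.44 at the midline) and oligodendrocyte markers lower in 3 of 3 (5.57 to 6.83, against 6.88 to 7.35), and their part in these differences was not tested. With arrays scaled to their medians, 68.3% of all called probes were higher in the outer pairs, against 46.0%.

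Between left and right, 0 of the 8 genes were called by limma, where 0.153% of detected probes were called in either direction. At an unadjusted p under 0.05 the count was also 0, and 0 without moderation of the variances. The largest differences of left minus right were those of Camk2a (0.36 ± 0.22) and Prkcb (0.20 ± 0.12).

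The ratios of 2 genes within an array are free of any scaling of arrays. Of the 28 ratios, 26 varied over the pairs (limma, adjusted over 28 ratios). The exceptions were Camk2d to Camk2g (adjusted p = 0.18) and Camk4 to Ppp3ca (adjusted p = 0.065). Ppp3ca and Prkcb had the most alike profiles of any 2 of the genes, with r = 0.91 over the 61 fractions, yet their ratio too was 0.61 ± 0.08 higher for Prkcb in the cerebrum than at the hindbrain end (adjusted p = 3.8e-08). Camk2a correlated with Ppp3ca at 0.78, with Prkcb at 0.77 and with Camk2b at 0.73. The lowest correlation was that of Camk2b with Camk2g, at -0.45. These correlations are descriptions over fractions that share mice and neighbouring tissue.

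**Figure D4:**
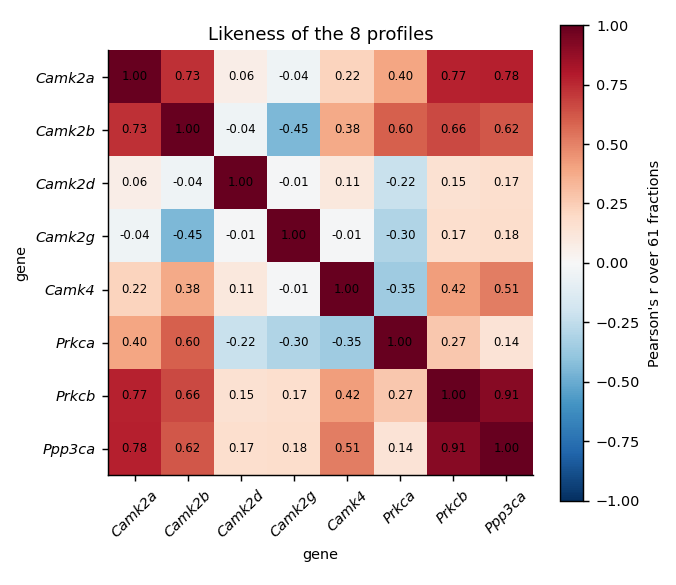
Pearson's r between the log2 levels of each 2 of the 8 genes over the 61 fractions, printed in each cell and coloured from -1 (blue) to 1 (red). Camk2a, Camk2b, Prkcb and Ppp3ca form a block of positive values (0.62 to 0.91), while Camk2d had no value above 0.17 with any of the others.

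Among 15529 other named genes, the profile over the 61 fractions most like that of Camk2a was that of Nrgn, the calmodulin-binding neurogranin of dendrites (r = 0.93), followed by Islr2 (0.93) and Oacyl (0.92). The genes most like Camk2b were Rasgrp1, a diacylglycerol-responsive activator of Ras (0.90), Sec14l1 (0.89) and Tmem131l (0.89). Prkcb was most like Ephx4, Slc39a10 and Mmp17 (0.94 to 0.95) and Ppp3ca most like Actn1 (0.94), Socs5 (0.93) and Asphd2 (0.91). Prkca was most like Gfpt2 (0.90), Hdac9 (0.87) and Smarcd1 (0.85). The genes most like Camk4 were Rbfox3, the marker NeuN of neuronal nuclei (0.87), Coro2b (0.86) and Syne1 (0.85). Camk2g was most like Nap1l2 (0.82), Atg4c (0.79) and Kcns3 (0.77). Camk2d had the weakest likeness to any gene, with Nhsl1 (0.70), Nckap5 (0.66) and Actn3 (0.65) ahead.

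The other genes of these pathways were counted in the cerebrum against the hindbrain end, where the median of all detected probes was -0.13. Of the CaM kinase cascade and its inhibitors, 5 of 7 measured genes were higher and 0 lower (median 0.35). Camkv, a kinase-like protein that binds calmodulin without kinase activity, rose by 3.41 ± 0.07 (limma, adjusted p = 7.9e-27), followed by Camk1g (0.56 ± 0.09) and Camk1 (0.40 ± 0.08). Of calmodulin and its neuronal buffers, 4 of 6 were higher and 0 lower (median 0.28), led by Nrgn at 5.00 ± 0.10. The calmodulin genes Calm2 and Calm3 gave 0.03 ± 0.07 and 0.04 ± 0.10. Gap43, a calmodulin-binding protein of axons, rose by 0.35 ± 0.10.

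Of the other protein kinase C genes, 5 of 7 were higher and 1 lower in the cerebrum (median 0.33). Prkch rose by 1.24 ± 0.15 and Prkce by 0.79 ± 0.07, whereas Prkcq fell by 0.40 and Prkcd gave -0.07 ± 0.21. All 7 of them were lower at the bulb end than in the cerebrum, where 16.5% of detected probes were lower. Their median was -0.98, against 0.02 over all detected probes. Among the 8 genes Prkcb was lower too, as were Camk2a, Camk2g and Ppp3ca. Prkca was not called there, at 0.32 ± 0.16. Prkcd, which is known as a thalamic gene, was 1.82 lower in the outer sagittal pairs than at the midline (limma, adjusted p = 2.1e-06), the other way from Prkcb.

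Of the calcineurin subunits and regulators, 5 of 7 were higher and 1 lower (median 0.47). The beta catalytic subunit Ppp3cb rose by 0.78 ± 0.04 and the regulatory subunit Ppp3r1 by 0.99 ± 0.28. Rcan3, an inhibitor of calcineurin, fell by 0.87. Ppp3cc, the gamma subunit, was higher at the bulb end by 1.34 (limma, adjusted p = 7.0e-09), where Ppp3ca was lower.

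Of the genes that supply and remove diacylglycerol, 3 of 10 were higher and 4 lower (median 0.02), shares near the 20.8% and 30.1% of all detected probes. The kinase gene Dgkb, which removes diacylglycerol, rose by 1.96 ± 0.11 and the phospholipase gene Plcb2 by 1.68 ± 0.13. The phospholipases Plcb4, which Purkinje cells express, and Plcb3 fell by 1.79 and 1.41, and Dgkg fell by 0.41. Of the substrates and synaptic partners, 6 of 10 were higher and 2 lower (median 0.82). Actn2, an actin crosslinker that binds CaM kinase II, rose by 4.01 ± 0.12, and the NMDA receptor subunits Grin2b and Grin2a by 2.49 ± 0.15 and 1.27 ± 0.12. The transcription factor genes Nfatc3, which calcineurin activates, and Creb1 fell by 1.12 and 0.30.

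The 2 mice of a plane differed in 6 of the 8 genes, where 63.1% of detected probes did (So minus S 29.9%, Co minus C 53.4%, Ho minus H 5.52%). All 6 were called in the coronal plane, 2 in the sagittal plane (Camk2a and Ppp3ca) and 0 in the horizontal plane. Co was lower than C for Camk2a (-0.55 ± 0.12), Prkca (-0.32 ± 0.05), Camk2d (-0.31 ± 0.07), Ppp3ca (-0.30 ± 0.06) and Prkcb (-0.30 ± 0.07), and higher for Camk4 (0.99 ± 0.12). Camk2b and Camk2g were not called (limma, adjusted p = 0.24 and 0.14), though Camk2b was without C1 or Co2 and Camk2g without S9 or So10. Mouse, cutting angle and scan day cannot be told apart in these differences.

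The probes of a gene disagreed on some of them. The dim second probe of Camk2a gave 0.47 ± 0.22 for Co minus C (limma, adjusted p = 0.072), and the second probe of Prkcb was called higher in So than in S (0.36 ± 0.11, adjusted p = 0.013). The brightest probe of Camk4 was higher in Co than in C in 12 of 13 pairs, while its second probe gave -0.21 ± 0.09 (limma, adjusted p = 0.050). For Camk2d the brightest probe was lower in Co in 13 of 13 pairs, another probe was higher in 13 of 13 (0.35 ± 0.04, adjusted p = 1.7e-08), and the third gave -0.21 ± 0.08 (adjusted p = 0.024). The first 2 of these probes had r = 0.03 over the 61 fractions, against 0.88 for the first and the third. The latter 2 probes carry the same RefSeq transcript identifier and the brightest another one.

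**Figure D5:**
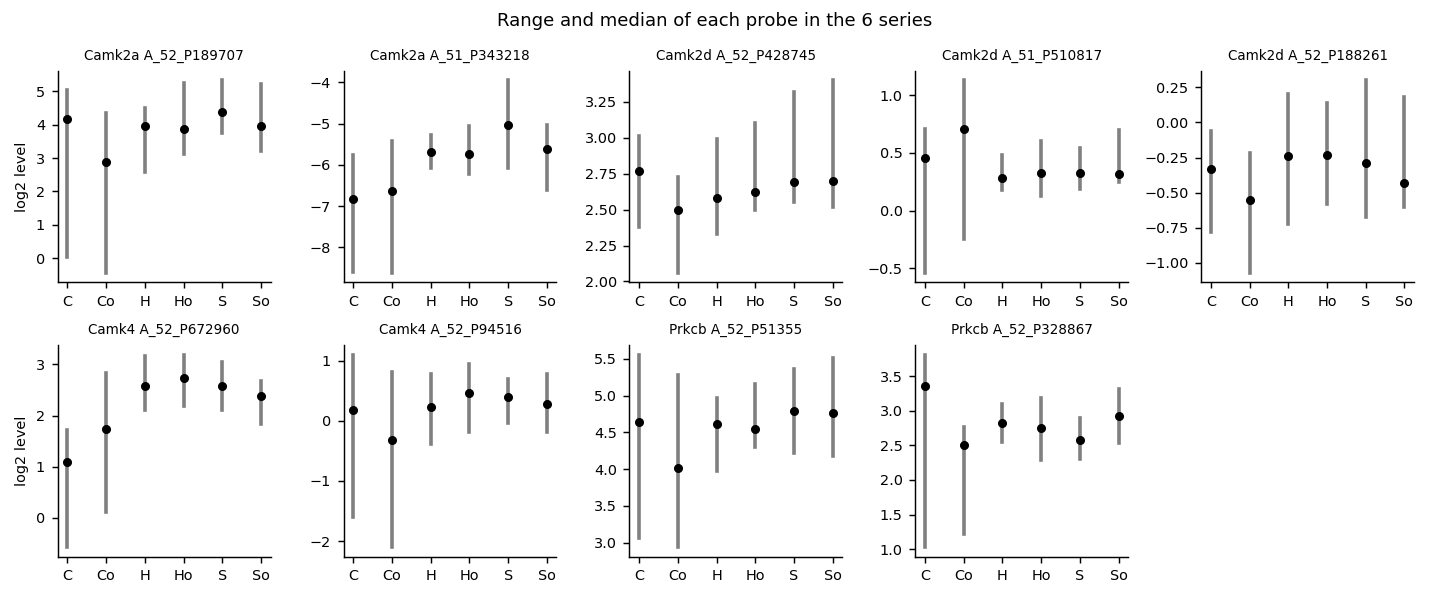
Lowest to highest log2 level (grey bars) and median (points) of each probe of Camk2a, Camk2d, Camk4 and Prkcb in the 6 series, each panel with its own scale. The brightest Camk4 probe had a median of 1.10 in C against 2.39 to 2.74 in the sagittal and horizontal series, and the second Camk4 probe 0.18 against 0.23 to 0.46.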

How the data were processed

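Total RNA of each fraction was labelled with Cy3 and hybridised to 1 Agilent 1-colour array. The authors deposited 1 scanner file per array with spot intensities from Agilent Feature Extraction (9.1.3.1), background-subtracted, and a table of linear intensity values normalized per array with GeneSpring GX (array medians 1.76 to 1.98), whose log2 differed from that of the processed signal by a constant on each array (SD over probes at most 0.055). For each probe the mean of its spots' log2 processed signals was taken, and from it the array's 75th percentile over 41174 probes was subtracted. Spots with outlier flags were left out where a probe had another spot, and 36573 probes well above background on 1 or more arrays were tested. limma 3.58.1 (R 4.3.3) was fitted with 1 coefficient for each of 28 pairs (28 residual degrees of freedom), and recovery was checked on simulated data. Same-mouse fractions deviated together (median r = 0.28 over 129 combinations, against -0.03 over 249 combinations across planes), so the mouse was also fitted as a block. The pairs are those of the study. The p-values measure the spread between the 2 brains of a pair, pooled for each probe over all 28 pairs of all planes. A p-value for 1 plane therefore also holds the mouse differences of the other planes. Each plane had 2 mice and the fractions of a mouse are not independent, which limits the precision. The p-values of the main fit treat the pairs as independent. The genes, lists and tests were chosen with earlier results of these data known. The genes named were the 8 genes, the 3 genes most like each, and of each list up to 3 with the largest difference and up to 3 in the opposite direction, between cerebrum and hindbrain end. Other genes, namely Calm2, Calm3 and Ppp3cc, were added after their values were seen, and some genes that the rule names are not reported here. A probe was named by its RefSeq identifier (22951 probes).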

Additional observations from a re-analysis of the deposited data

Results flagged for a closer look

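Within the series S, So, H and Ho, 32 combinations of a gene and a series were tested for a sample far from the others, and 2 stood out, while chance flags about 1 in 20 such groups. Camk2d in Ho7, the most ventral fraction of its series, had a log2 level of 3.105 against 2.70 in the next highest fraction and 2.50 in the lowest, a gap of 0.676 of the whole range. Camk2g in So2 had a log2 level of 4.15 against 3.73 in the next highest and 3.44 in the lowest, a gap of 0.592 of the range. No gene had opposite differences in the 2 mice of a plane with fractions that did not overlap in both.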

How the results depend on the processing

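Between cerebrum and hindbrain end, 5 genes were called higher under each alternative that kept the brightest probes. Genes called lower were 2 with the mouse as a block (Camk2d and Camk4), 1 with normexp and quantile normalization (Camk2g) and 0 under the others with all arrays kept. With single arrays left out, the count in either direction ranged from 5 to 6, the sixth being lower (Camk4 without C1, Camk2d without C11). The dorsal to ventral count of 3 became 5 with arrays scaled to their medians, with the intensities normalized by the authors and with only probes well above background on all arrays, 7 with the mouse as a block (replicate block), and 1 with the slide as a random block and with h1 against h6 alone (Camk2g in the latter). The outer minus midline count of 4 became 1 with normexp and quantile normalization and 1 with s1 and s9 against s5 (Prkcb, 0.90, adjusted p = 0.0019). The bulb end count of 4 became 7 with c12 and c13 against c7 to c11. The count of 7 varying genes became 3 over the horizontal pairs alone and 0 over the sagittal pairs alone, where 12.6% and 6.59% of detected probes varied. Each of these fits held fewer fractions than the main fit. The cause of all these changes was not tested. With single arrays left out, the counts ranged from 7 to 8 for variation, 3 to 4 at the bulb end, 1 to 4 from dorsal to ventral, 3 to 4 from outer to midline, 0 to 0 between left and right, 6 to 7 between mice and 25 to 27 for the ratios. The dorsal to ventral count was 1 without H1, H2, H5 or Ho2. With the mouse as a block the other counts were 8, 7, 6, 6 and 0 for variation, cerebrum, bulb end, outer and left, and 28 for the ratios. Of the 36573 detected probes, the block gave 31440, 22744, 17285, 12170 and 591 calls in the same order. Without the block these were 22417, 18642, 11814, 7163 and 56.

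Of 651 values of single genes and settings, 561 stayed on their side of the threshold, 47 newly passed it and 42 no longer did. Of the 465 values with a sign, 20 changed it. The 1 of these that had been called was the outer minus midline difference of Camk2a with its dim second probe, at -0.52. The 19 others had not been called. Outside the left-right comparison they were Camk4 in the cerebrum with c8 to c11 against c1 to c3 (0.05), Camk2b at the bulb end with normexp and quantile normalization (-0.02), Camk2d from dorsal to ventral with another probe (0.11), and Camk2g from outer to midline with normexp and quantile normalization (-0.04) and at the lowest with single arrays left out (-0.06). With the slide as a random block, the dorsal calls of Ppp3ca and Camk2g (adjusted p = 0.12 and 0.088) and the mouse call of Prkcb (adjusted p = 0.19) were lost. With normexp and quantile normalization, the outer calls of Camk2a, Camk2b and Ppp3ca were lost (adjusted p = 0.072, 0.38 and 0.059), as was the dorsal call of Camk2g (0.054), and Camk2g was called lower in the cerebrum (-0.26, adjusted p = 0.0066). Over all alternatives of a result, the adjusted p ranged from 0.0041 to 0.61 for variation of Camk2d, and for cerebrum minus hindbrain end from 0.0038 to 0.73 for Camk2d and from 0.0047 to 0.91 for Camk4. At the bulb end it ranged from 1.8e-05 to 0.20 for Prkca and from 4.5e-06 to 0.39 for Camk4. From dorsal to ventral it ranged from 0.0051 to 0.78 for Camk2a, 0.033 to 0.41 for Camk2b, 0.0081 to 0.77 for Camk2d and 0.0015 to 0.77 for Camk4, and from outer to midline from 0.018 to 0.93 for Camk2d and 0.011 to 0.69 for Camk4. Of the probes of these genes, only the dim second probe of Camk2a was not well above background in all fractions. The second probe of Prkcb and 1 of the other probes of Camk2d were above background throughout and still disagreed with the brightest probe. Between cerebrum and hindbrain end that Prkcb probe differed by 0.07, against 1.47. That Camk2d probe had r = 0.03 with the brightest one.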

Other observations

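The 5 fractions that belong to no pair entered no test. So1, the outermost left fraction of So, had log2 levels of 5.23 for Camk2a, 5.15 for Prkcb and -2.05 for Prkca, the highest of the So series for Camk2a and Prkca. Ho1, the most dorsal fraction of Ho, had the highest levels of its series for Camk2a (5.26), Prkcb (5.16) and Ppp3ca (6.87), while Camk2d was at its lowest there (2.50). Co1, the hindmost fraction of Co, had 1.96 for Camk2a, above the 4 hindbrain fractions Co2 to Co5, but the lowest levels of its series for Camk2b (4.24) and Prkcb (2.94). Co16, the foremost fraction, had the lowest levels of its series for Camk4 (0.11), Camk2g (3.01) and Ppp3ca (4.93). Co13, between the fractions paired with C11 and C12, had 3.52 for Camk2a, 4.92 for Prkcb and -1.67 for Prkca.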
